A study of Sus scrofa with 15 samples.

Results

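The 9 genes of the Desert hedgehog pathway measured in piglet testis were the ligand DHH, its receptor PTCH1, the ligand-binding inhibitor HHIP, the co-receptors BOC and CDON, the signal transducer SMO and the transcription factors GLI1, GLI2 and GLI3. They were taken by gene symbol from the deposited table, in which all 9 have 1 row each among 30476 genes. All 9 also passed the filter on low counts, which left 15634 genes for testing.

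Desert hedgehog is a secreted protein made in the testis by Sertoli cells, the supporting cells of the seminiferous tubule. It acts across the tubule wall on cells that carry PTCH1, such as peritubular myoid cells and the precursors of Leydig cells, the androgen-producing cells of the interstitium. Without ligand PTCH1 holds SMO inactive, and when ligand binds, SMO moves into the primary cilium and the GLI proteins activate transcription, including that of GLI1, PTCH1 and HHIP themselves.

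The samples were testes of 15 male Dutch Landrace Duroc piglets, with 1 library per piglet and 3 piglets per diet. After 2 days with the sow, piglets were given sow milk (Sow), a cow's milk formula (Milk), a soy formula (Soy), or the same cow's milk formula to which either 17β-estradiol (E2, 2 mg/kg/d; the group M + E2) or the soy isoflavone genistein (84 mg/L of diet; the group M + G) was added. All were killed on day 21. The deposited values are read counts per gene, between 6097552 and 9488579 per library, and 1 Sow and 1 Soy library, which carry no number in the table, are called unnumbered here. Levels are given as CPM, counts scaled to a common library size that was adjusted by the trimmed mean of M-values (TMM), and are not corrected for gene length, so that levels of different genes are not compared.

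Whole-testis RNA holds all cell types, and fewer cells of a type cannot be told apart from less RNA per cell. Defining markers of Sertoli and Leydig cells were read in every library, AMH at 295 to 1224 CPM and INSL3 at 2857 to 6632 CPM. The libraries differed in 2 ways that groups of diet did not explain in full. In Milk 2, Soy 3 and M + G 2 the 10 peritubular myoid markers summed to 3726 to 5739 CPM and the 10 interstitial fibroblast markers to 24720 to 29780 CPM, against 530.5 to 1580 CPM and 5668 to 12020 CPM in the other 12 libraries. Most of the fibroblast sum is collagen, COL1A1 at 1071 to 19150 CPM and COL3A1 at 2488 to 8978 CPM over all libraries. PDGFRA, from the same list, did not divide the libraries in this way, at 115 to 118 CPM in M + G and 127 to 174 CPM in M + E2. The other markers of the list are not given by library here. In 6 libraries (the 3 of Sow, Milk 1, Milk 2 and Soy unnumbered) 14 ribosomal protein genes summed to 20940 to 37340 CPM, against 10130 to 16560 CPM in the remaining 9. Sow 2 had the highest of these sums. It was left out of the comparisons, following the methods of the study, and Sow is then represented by the other pair of libraries.

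The level of DHH overlapped between all diets. Its gene lies on chromosome 5 (Sscrofa11.1, positions 15114524 to 15119610). It stood at 24.97, 20.6 and 23.03 CPM in Sow unnumbered, Sow 2 and Sow 3, at 17.0, 16.6 and 23.6 CPM in Milk 1 to 3, at 24.6, 19.6 and 17.8 CPM in Soy unnumbered, 2 and 3, at 18.4, 26.9 and 21.2 CPM in M + E2 1 to 3, and at 22.7, 14.1 and 27.9 CPM in M + G 1 to 3. Every group overlapped every other, and M + G held both the lowest and the highest library. The group means ran from 22.9 ± 2.20 CPM in Sow (SD, n = 3) through 22.2 ± 4.34 for M + E2, 21.6 ± 6.96 for M + G and 20.7 ± 3.56 for Soy to 19.1 ± 3.94 for Milk, and no neighbours in this order differed beyond their SD. These levels rest on 116 to 253 reads per library, for which counting error alone is 9.29% to 6.29%. The SD of DHH over the 15 libraries was 0.28 on the log2 CPM scale, smaller than the median of 0.42 over the genes tested, and 24.7% of them had a smaller SD.

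PTCH1, the receptor (chromosome 10, 26627165 to 26703225), was highest in the E2 group. It stood at 123, 133 and 117 CPM in M + E2, and at 74.5, 53.8 and 73.1 CPM in Sow unnumbered, 2 and 3. Milk 1 to 3 had 58.2, 43.2 and 116 CPM, Soy unnumbered, 2 and 3 had 65.6, 90.7 and 79.6 CPM, and M + G 1 to 3 had 99.0, 60.4 and 104 CPM. All M + E2 libraries lay above all others, although Milk 3 came close to the lowest of them. The means were 124 ± 7.95 CPM in M + E2, 87.8 ± 23.9 in M + G, 78.6 ± 12.6 in Soy, 72.4 ± 38.2 in Milk and 67.1 ± 11.6 in Sow (SD, n = 3 each). The step from M + E2 to M + G was larger than the SD of either group, and the other neighbours did not differ beyond their SD.

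HHIP, a membrane protein that binds hedgehog ligands and keeps them from PTCH1 (chromosome 8, 83583735 to 83678368), was also highest on average in M + E2. It stood at 40.01, 38.4 and 37.5 CPM in M + E2 1 to 3, and in the other groups the highest library was Milk 3 at 38.9 CPM. The remaining Milk libraries had 23.4 and 18.2 CPM, Sow 24.8 to 32.3 CPM, Soy 23.1 to 27.4 CPM and M + G 22.6 to 32.4 CPM. The M + E2 mean of 38.7 ± 1.26 CPM (SD, n = 3) was followed by 28.8 ± 5.46 in M + G, 28.5 ± 3.73 in Sow, 26.8 ± 10.8 in Milk and 25.5 ± 2.25 in Soy, and only the first step in this order exceeded the SD of both groups.

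BOC and CDON, cell-surface proteins that help PTCH1 bind the ligand (chromosome 13, 146625218 to 146703165, and chromosome 9, 53079543 to 53178881), were highest in single libraries and not in a diet. For BOC the highest value was 40.2 CPM in M + G 2, and the other 14 libraries ran from 10.9 CPM in Soy unnumbered to 25.8 CPM in Milk 2. For CDON the highest values were 100.1 CPM in Soy 3, 87.6 CPM in M + G 2 and 64.7 CPM in Milk 2, and the remaining 12 libraries ran from 29.6 to 62.4 CPM. These are the libraries with the high myoid and fibroblast sums: there CDON was at 64.7 to 100.1 CPM and BOC at 24.9 to 40.2 CPM, against 29.6 to 62.4 CPM and 10.9 to 24.8 CPM in the other 12. Neither gene overlapped, but for BOC the gap was smaller than counting error (5.12% to 11.7%). For CDON it was within the range of counting error (3.43% to 7.13%). The share of all genes without overlap in this division was not computed. For both, the order of the group means held no step larger than the SD of both groups.

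SMO, the transducer (chromosome 18, 19450730 to 19478796), was lowest in the Sow group. It stood at 59.5, 42.4 and 69.4 CPM in Sow unnumbered, 2 and 3, and Soy unnumbered, at 66.7 CPM, was the 1 other library below the highest of these. Milk 1 to 3 had 76.2, 89.3 and 101 CPM and Soy 2 and 3 had 82.7 and 104 CPM. M + E2 1 to 3 had 105, 124 and 106 CPM and M + G 1 to 3 had 95.3, 98.4 and 115 CPM, so that these groups overlapped each other and neither overlapped Sow. The means were 112 ± 10.5 CPM in M + E2, 103 ± 10.8 in M + G, 88.7 ± 12.2 in Milk, 84.3 ± 18.5 in Soy and 57.1 ± 13.7 in Sow (SD, n = 3 each). The steps from M + G to Milk and from Soy to Sow were larger than the SD of both groups, and those from M + E2 to M + G and from Milk to Soy were not.

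Among the transcription factors, GLI1, which is itself a target of the pathway (chromosome 5, 22736325 to 22747421), stood at 18.1, 17.6 and 20.03 CPM in M + E2 1 to 3 and at 14.6, 16.65 and 17.8 CPM in M + G 1 to 3. In Sow unnumbered, 2 and 3 it stood at 13.9, 7.96 and 10.9 CPM, in Milk 1 to 3 at 9.51, 9.73 and 17.98 CPM, and in Soy unnumbered, 2 and 3 at 8.71, 16.6 and 13.5 CPM. Every library of M + E2 and of M + G was above every Sow library, while Milk overlapped every group and Soy every group but M + E2. The mean was 18.6 ± 1.30 CPM in M + E2, 16.3 ± 1.62 in M + G, 12.9 ± 3.97 in Soy, 12.4 ± 4.83 in Milk and 10.9 ± 2.96 in Sow (SD, n = 3 each), and the first step alone was larger than the SD of both groups.

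GLI2, the main activator of the family (chromosome 15, 30312528 to 30580272), was the most variable member. It ranged from 5.11 CPM in Sow 2, where it had 34 reads, to 35.9 CPM in Soy 3. The Sow libraries had 9.26, 5.11 and 8.85 CPM, below every library of the other groups, of which the lowest were Soy unnumbered at 9.53 CPM and Milk 1 at 9.94 CPM. M + E2 held 18.2 to 24.2 CPM, M + G 14.3 to 25.8 CPM, Milk 9.94 to 23.7 CPM and Soy 9.53 to 35.9 CPM. Its SD over the 15 libraries was 0.75 on the log2 CPM scale, and 89.8% of the genes tested had a smaller one.

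GLI3, which acts mostly as a repressor in the absence of ligand (chromosome 18, 52403463 to 52697906), stood at 29.2, 19.1 and 38.9 CPM in Sow, at 30.3, 39.05 and 80.7 CPM in Milk, at 34.03, 52.9 and 69.5 CPM in Soy, at 62.3, 71.4 and 50.9 CPM in M + E2 and at 48.4, 62.3 and 53.5 CPM in M + G, in the library order used above. The 6 libraries with the lowest values were the 6 with the high ribosomal protein sums, at 19.1 to 39.05 CPM, and the other 9 lay between 48.4 and 80.7 CPM. SMO and GLI1 followed the same division with a small overlap, SMO at 42.4 to 89.3 against 82.7 to 124 CPM and GLI1 at 7.96 to 13.9 against 13.5 to 20.03 CPM. DHH did not follow it, with 16.6 to 24.97 against 14.1 to 27.9 CPM.

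**Figure D1:**
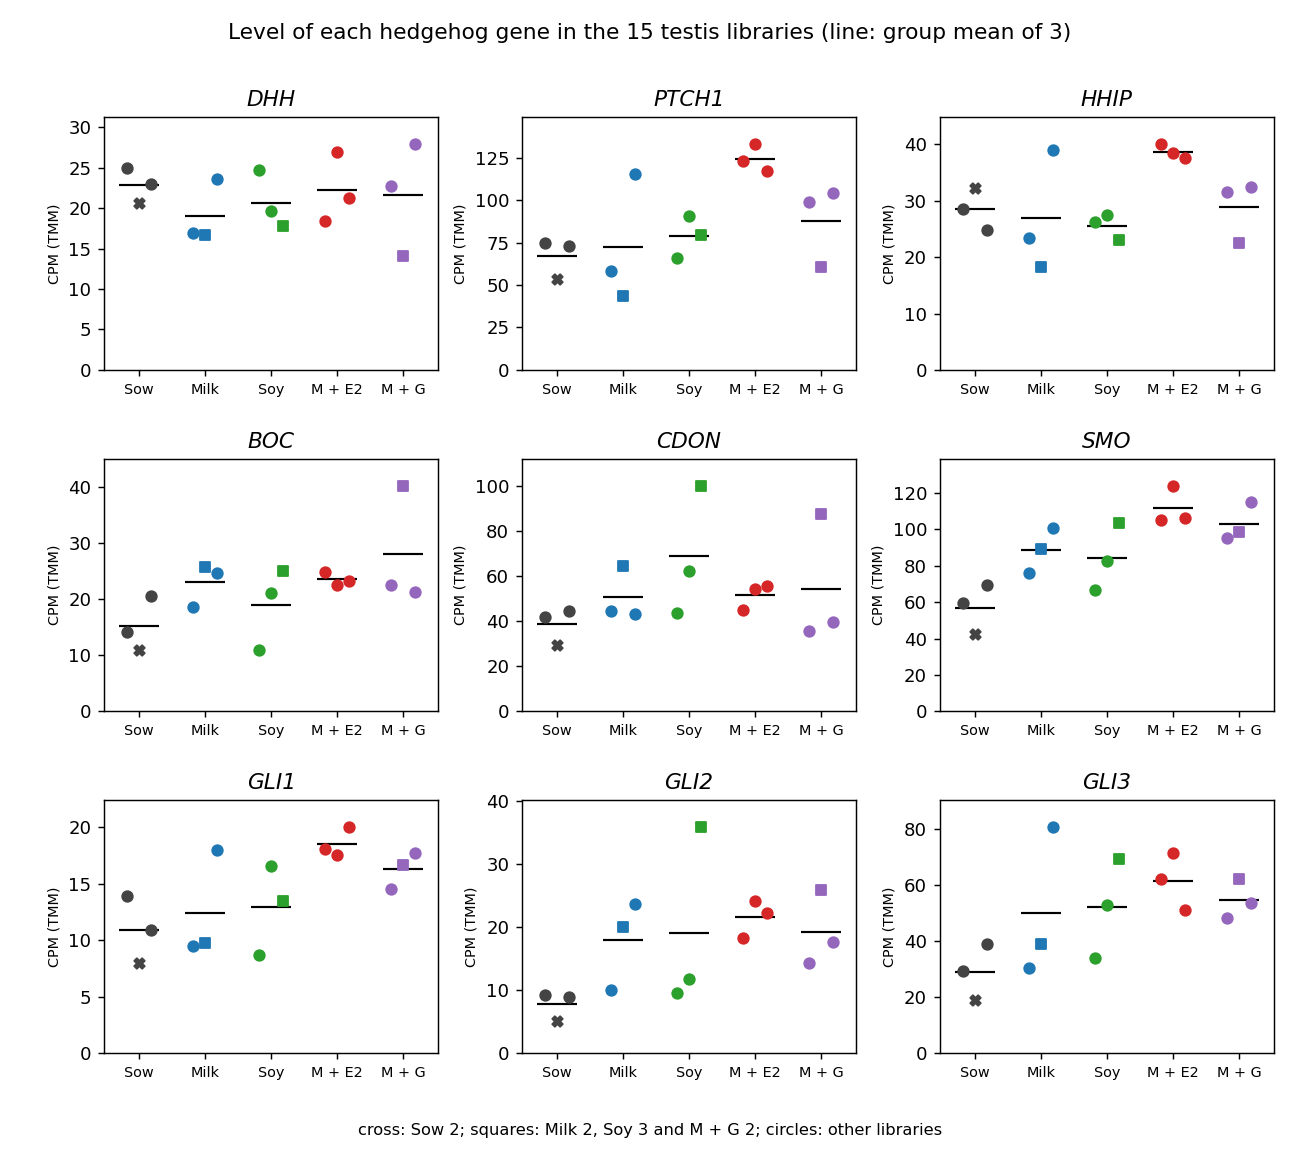
Level of each of the 9 genes (y axis, CPM after TMM scaling, starting at 0, a different scale in each panel) in each library (points) by diet group (x axis), with the group mean of 3 as a line; the cross is Sow 2, and squares are Milk 2, Soy 3 and M + G 2. DHH lies between 14.1 and 27.9 CPM with all groups overlapping, PTCH1 has all 3 M + E2 libraries above the others, and GLI2 has all 3 Sow libraries below the others.

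The comparison of M + E2 with Sow asks how estrogen exposure through formula differed from feeding on sow milk. Among the members, SMO was higher in M + E2 with an adjusted p below the threshold, 8 of 9 members had a higher level in every M + E2 library than in the 2 Sow libraries compared, and DHH was the exception. By edgeR's quasi-likelihood test, 0 of the 9 members were called on the joint criterion of a 2-fold change and an adjusted p (Benjamini-Hochberg over all genes) not above 0.05, where 5.0% of the genes tested were called. At an adjusted p of 0.05 or less without the fold limit it was 1 member, SMO, where the share of all genes was 7.97%. The count of 8 members with higher levels and no overlap stands beside 30.2% of all genes that were higher without overlap (62.1% in either direction), and the 4 members with an unadjusted p of 0.05 or less, all of them higher, stand beside 14.6% of all genes (33.8% in either direction). The log2 fold changes of the members had a median of 0.63 and that of all genes tested was 0.01. Without TMM scaling the median of all genes moved to 0.31, the same 8 members stayed positive, DHH changed sign, to 0.23, and SMO was called at 1.14 (7.91% of all genes).

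SMO had a log2 fold change of 0.84 (SE 0.20, adjusted p = 0.0396, edgeR), that is 1.79-fold with a 95% interval of 1.32 to 2.41, in M + E2 relative to Sow. The other 3 members with an unadjusted p of 0.05 or less did not pass the adjusted threshold: PTCH1 had 0.80 (SE 0.35, adjusted p = 0.129), GLI2 1.29 (SE 0.51, adjusted p = 0.100) and GLI3 0.89 (SE 0.38, adjusted p = 0.117). HHIP, BOC, CDON and GLI1 had log2 fold changes between 0.29 and 0.63 with adjusted p-values from 0.1501 to 0.613. For DHH the log2 fold change was −0.07, with a 95% interval from −0.66 to 0.51 and an adjusted p of 0.870, so that levels between 0.633-fold and 1.42-fold of that in Sow were within the error.

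The calls depended on the Sow libraries and on the test. With Sow 2 put back, 3 members were called, SMO at 1.077 (SE 0.20, adjusted p = 0.00676), GLI2 at 1.58 (adjusted p = 0.0181) and GLI3 at 1.19 (adjusted p = 0.0204), where 18.1% of all genes were called. GLI2 alone was called by DESeq2's Wald test (8.80% of all genes), by edgeR's exact test (12.6%) and in a fit of only these groups (12.3%), so that 1 of 9 is near the share of all genes. Below the 2-fold limit SMO also had an adjusted p of 0.05 or less by DESeq2, as did PTCH1, HHIP, SMO, GLI1 and GLI3 by the exact test. Leaving out Sow 3 and keeping Sow 2 gave 5 called members (PTCH1, BOC, SMO, GLI2 and GLI3) where 21.3% of all genes were called, leaving out Sow unnumbered in the same way gave SMO and GLI2 (18.4%), and leaving out Soy 3 gave GLI2 (7.77%). The 14 ribosomal protein genes moved with this comparison, all 14 lower in M + E2 with a median log2 fold change of −0.92 and adjusted p-values from 0.0550 to 0.312. With their mean level as a covariate the values were 0.52 for SMO (adjusted p = 0.210), 0.11 for PTCH1, 0.73 for GLI2 and 0.13 for GLI3, and only 3 genes of all those tested were called. Of the 9 Leydig cell markers measured, 8 were lower in M + E2, where they summed to 15670 to 17360 CPM against 26240 to 27340 CPM in Sow, and their part in these results was not tested.

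In M + G relative to Sow, SMO again had the smallest p among the members, and no member passed an adjusted threshold. Of the 9 members 0 were called by edgeR's quasi-likelihood test, where 0.0576% of all genes were called. SMO, at 95.3 to 115 CPM in M + G, had a log2 fold change of 0.68 (SE 0.20, adjusted p = 0.124) and was the 1 member with an unadjusted p of 0.05 or less, beside 9.88% of all genes that were higher (23.6% in either direction). BOC, SMO, GLI1, GLI2 and GLI3 were higher in every M + G library than in the 2 Sow libraries, a count of 5 beside 25.5% of all genes. Over the members the log2 fold changes ran from −0.15 for DHH to 1.09 for GLI2. DESeq2 called 0 members, where SMO had an adjusted p of 0.0312 below the 2-fold limit. GLI2 was called by edgeR's exact test (6.48% of all genes) and with all 3 Sow libraries (10.3%), near the share of all genes for 1 of 9. Leaving out Sow 3 while keeping Sow 2 gave BOC, SMO and GLI3, where 13% of all genes were called, with SMO at 1.07. The 14 ribosomal protein genes were all lower in M + G (median log2 fold change −0.71) and the 10 peritubular myoid markers all higher (median 1.29). With the mean ribosomal protein level as a covariate SMO had 0.40 (SE 0.15, adjusted p = 0.375) and PTCH1, HHIP and GLI1 changed sign. The part of the myoid markers was not tested.

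Soy and Milk relative to Sow gave 0 members called each, where 0.0128% and 0.0192% of all genes were called, and DESeq2 and edgeR's exact test also called 0. For Soy 0 members had an unadjusted p of 0.05 or less (15.0% of all genes), and GLI2 alone was higher without overlap (18.2% of all genes). The Soy log2 fold changes ran from −0.22 for DHH to 1.07 for GLI2, with adjusted p-values of 0.335 and above. For Milk the 1 member with an unadjusted p of 0.05 or less (12.1% of all genes, 6.13% higher) was SMO, at 0.47 (SE 0.20, adjusted p = 0.395). It had 0.87 when Sow 2 was kept in place of Sow 3 and 0.30 with the ribosomal protein level as a covariate. SMO and GLI2 were higher without overlap (14% of all genes). The 4 comparisons with Sow use the same 2 Sow libraries, so that a level of these libraries enters all 4. For DHH the 95% intervals of the log2 fold change were −0.73 to 0.44 for M + G, −0.81 to 0.36 for Soy and −0.90 to 0.27 for Milk, all of which include 0.

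Adding E2 to the cow's milk formula, the comparison in which the base diet is the same, gave higher mean levels of PTCH1, HHIP and GLI1. These are target genes of the pathway, and none passed the adjusted threshold. In M + E2 relative to Milk 0 members and 0 genes of all tested (0%) were called by edgeR's quasi-likelihood test, which gave 2772 genes, or 17.7%, at an unadjusted p of 0.05 or less. DESeq2 called 122 genes and edgeR's exact test 92, with 0 members among either. PTCH1 had a log2 fold change of 0.81 (SE 0.31, adjusted p = 0.234), HHIP 0.55 (SE 0.24, adjusted p = 0.261) and GLI1 0.61 (SE 0.27, adjusted p = 0.268), and these were the 3 members with an unadjusted p of 0.05 or less, all higher, beside 7.23% of all genes. PTCH1 and SMO did not overlap between the groups, a count of 2 beside 8.78% of all genes that were higher without overlap.

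All 9 members had a positive log2 fold change in M + E2 relative to Milk under TMM scaling, from 0.05 for CDON to 0.81 for PTCH1 with a median of 0.33, where 47.6% of all genes had a positive one. The direction was not particular to E2: in M + G relative to Milk all 9 were positive too, where 48.6% of all genes were. For M + E2 all 9 were also positive with DESeq2's size factors and without scaling, where they ran from 0.26 to 0.99 and the median of all genes moved from −0.03 to 0.17. BOC and CDON, both near 0, changed sign with single libraries left out. DHH stood at 0.24 (95% interval −0.28 to 0.77). The size of the 3 target gene values depended on single Milk libraries, in both directions. Without Milk 3 PTCH1 was called at 1.32 (SE 0.24, adjusted p = 0.0195; 8.04% of all genes were called), and HHIP had 0.92 (adjusted p = 0.0203) and GLI1 0.98 (adjusted p = 0.02503), both under the 2-fold limit. Without Milk 2 PTCH1 had 0.54 (adjusted p = 0.525), HHIP 0.33 (adjusted p = 0.627) and GLI1 0.45 (adjusted p = 0.611). Markers of other cells stood beside these values: the 10 peritubular myoid markers were all lower in M + E2, where they summed to 921 to 1291 CPM against 1410 to 4662 CPM in Milk, and 13 of 15 Sertoli cell markers were higher, at 10900 to 11210 CPM in sum against 7298 to 9763 CPM. Their part in the result was not tested. The 14 ribosomal protein genes were also all lower in M + E2 relative to Milk (median log2 fold change −0.49). With their mean level as a covariate PTCH1 had 0.58, HHIP 0.41 and GLI1 0.42 (adjusted p = 0.195, 0.362 and 0.363, edgeR). The unadjusted p was then above 0.05 for HHIP (0.0623) and GLI1 (0.0640) and 0.0118 for PTCH1.

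No member reached an unadjusted p of 0.05 in M + G or Soy relative to Milk. In both, 0 members and 0 genes of all tested (0%) were called by edgeR's quasi-likelihood test, and at an unadjusted p of 0.05 or less it gave 406 genes (2.60%) for M + G and 381 (2.44%) for Soy, with 0 members among either. DESeq2 called 2 genes for M + G and 6 for Soy and edgeR's exact test called 2 and 5, again with 0 members. The members ran from 0.09 to 0.38 in M + G and from −0.29 for BOC to 0.42 for CDON in Soy on the log2 scale, and for DHH the 95% intervals were −0.36 to 0.70 and −0.44 to 0.62.

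Soy relative to M + E2 sets the isoflavone-containing formula against the estrogen. PTCH1, HHIP, SMO and GLI1 were lower in every Soy library than in every M + E2 library, a count of 4 beside 9.82% of all genes. By edgeR's quasi-likelihood test none of the members passed an adjusted threshold, and 0 were called where 0.147% of all genes were called. DESeq2 and edgeR's exact test also called 0, but by the exact test PTCH1 and HHIP had adjusted p-values of 0.02003 and 0.0398 below the 2-fold limit. PTCH1 had a log2 fold change of −0.71 (SE 0.30, adjusted p = 0.347), HHIP −0.65 (SE 0.24, adjusted p = 0.279) and SMO −0.46 (SE 0.18, adjusted p = 0.297), and these 3 with an unadjusted p of 0.05 or less, all lower, stood beside 4.60% of all genes (13% in either direction). CDON was the 1 member with a positive value, 0.37, and the median of the members was −0.35 where that of all genes was 0.03. Of the markers of other cells, the 10 peritubular myoid markers were all higher in Soy (median 1.15), 12 of 15 Sertoli cell markers lower and 8 of 9 Leydig cell markers higher, and their part in these values was not tested. Among all 5 groups, 0 members differed at an adjusted p of 0.05 or less by the same test (0.0640% of all genes did), the smallest adjusted p being 0.210 for SMO, which was also the 1 member with an unadjusted p of 0.05 or less (18.1% of all genes) and the 1 member called by DESeq2's likelihood ratio test (6.81% of all genes) and with all 3 Sow libraries (7.62%). Without Milk 3 edgeR's test called PTCH1 and HHIP, where 6.67% of all genes were called.

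**Figure D2:**
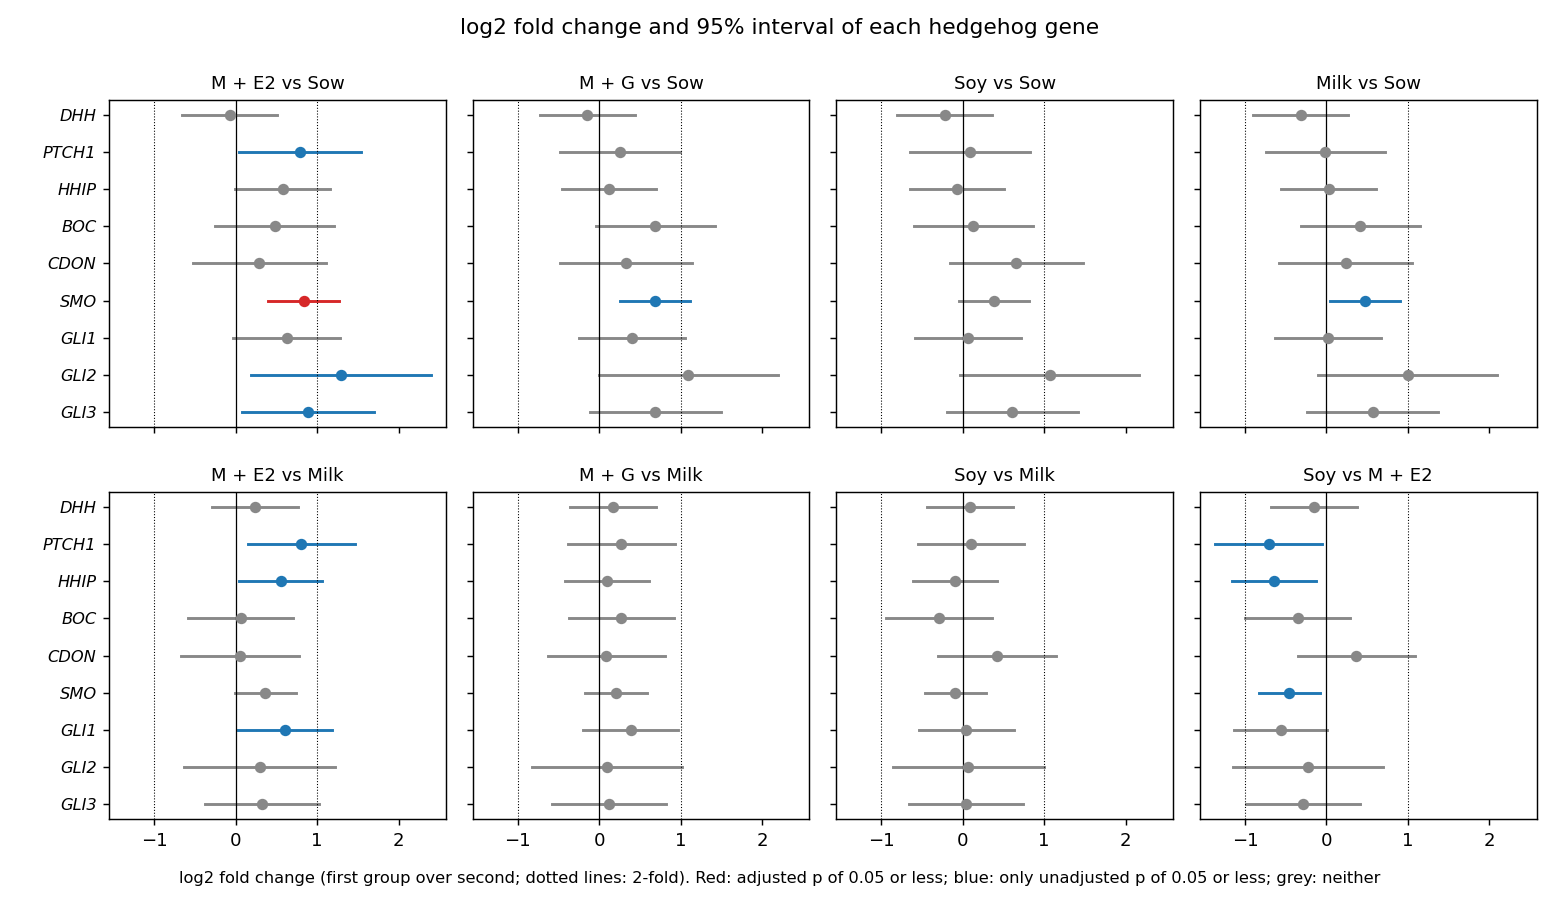
log2 fold change (x axis, first group over second, dotted lines at 2-fold) of each member (y axis) in the 8 comparisons, with 95% intervals from edgeR's quasi-likelihood fit. Red marks an adjusted p of 0.05 or less, reached by SMO in M + E2 vs Sow alone, blue an unadjusted p of 0.05 or less only, and grey neither; the DHH interval includes 0 in every panel.

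Libraries with the high myoid and fibroblast sums also had low values of the ligand and of HHIP. In Milk 2, Soy 3 and M + G 2 DHH was at 14.1 to 17.8 CPM and HHIP at 18.2 to 23.1 CPM, against 17.0 to 27.9 CPM and 23.4 to 40.01 CPM in the other 12 libraries. DHH overlapped, and the gap in HHIP was smaller than its counting error (5.21% to 8.22%), so the 2 sides were not clearly separate for either gene. The Sertoli cell markers, among them AMH and SOX9, summed to 7298 to 7385 CPM in these 3 libraries and to 9131 to 12450 CPM in the others. Schwann cells, which ensheath nerves, also make DHH: the Schwann cell markers read (7 of 8 listed) summed to 585 to 870 CPM in Sow and to 312 to 576 CPM in the other groups, with SOX10 at no more than 3.44 CPM and S100B not analysed here. What part these cells have in the DHH level was not tested.

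**Figure D3:**
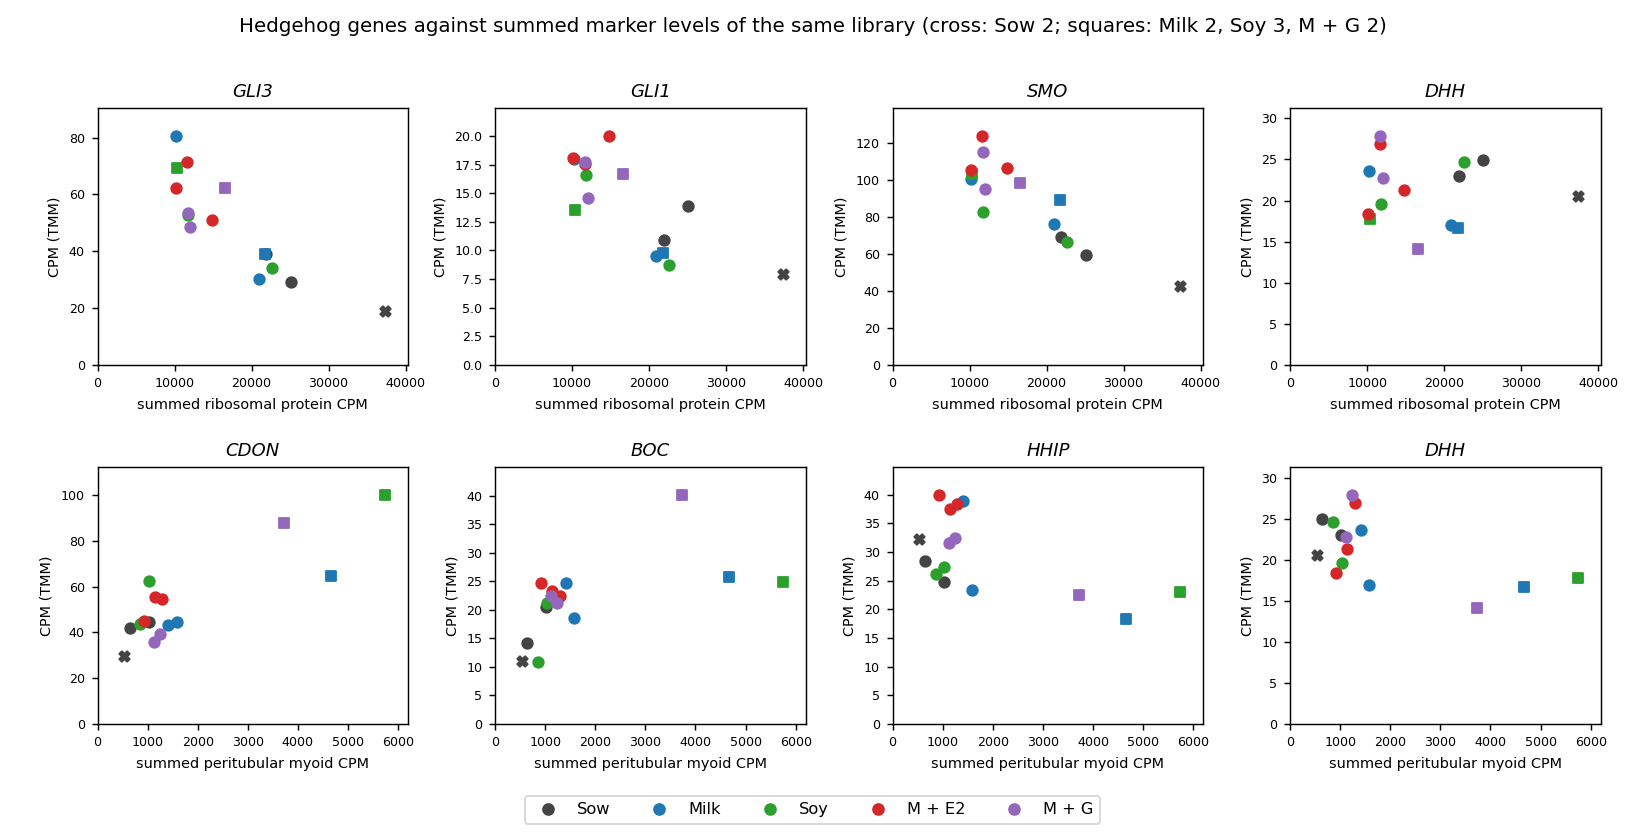
Levels of hedgehog genes (y axes, CPM) against the summed level of 14 ribosomal protein genes (upper row, x axis, CPM) and of 10 peritubular myoid markers (lower row) in the same library, coloured by diet; the cross is Sow 2 and squares are Milk 2, Soy 3 and M + G 2. GLI3 is at 39.05 CPM or below in the 6 libraries whose ribosomal protein sum is above 20000 CPM, CDON is at 64.7 CPM or above in the 3 libraries with the highest myoid sums, and DHH overlaps between the 2 sides of the upper row.

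Whether DHH varied together with 3 target genes of the pathway was asked over the 15 libraries on log2 CPM. Pearson's r of DHH with PTCH1 was 0.515 (permutation test, two-sided, p = 0.05003, adjusted p = 0.0750 over the 3 relations; Spearman's rho 0.489, permutation p = 0.0672, adjusted p = 0.101). With HHIP r was 0.560 (permutation p = 0.0307, adjusted p = 0.0750; rho 0.568, permutation p = 0.0300, adjusted p = 0.0899), and with GLI1 r was 0.153 (permutation p = 0.584; rho 0.200, permutation p = 0.477). None of the 3 passed an adjusted p of 0.05. Without M + G 2 and M + G 3, which lie farthest from the median of DHH, r was 0.440, 0.504 and 0.225 for PTCH1, HHIP and GLI1.

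These relations moved with the libraries and the scaling. Without Milk 2, Soy 3 and M + G 2, r was 0.289 for PTCH1, 0.196 for HHIP and 0.217 for GLI1 (permutation adjusted p = 0.534 for each). With the group means removed r was 0.654 for PTCH1, 0.617 for HHIP and 0.184 for GLI1. No p-value is given for these, because libraries were shuffled across groups, which is not valid once the group means are removed. Without TMM scaling all 3 were higher, at 0.784, 0.745 and 0.576 (permutation adjusted p = 0.00228, 0.00243 and 0.0248).

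**Figure D4:**
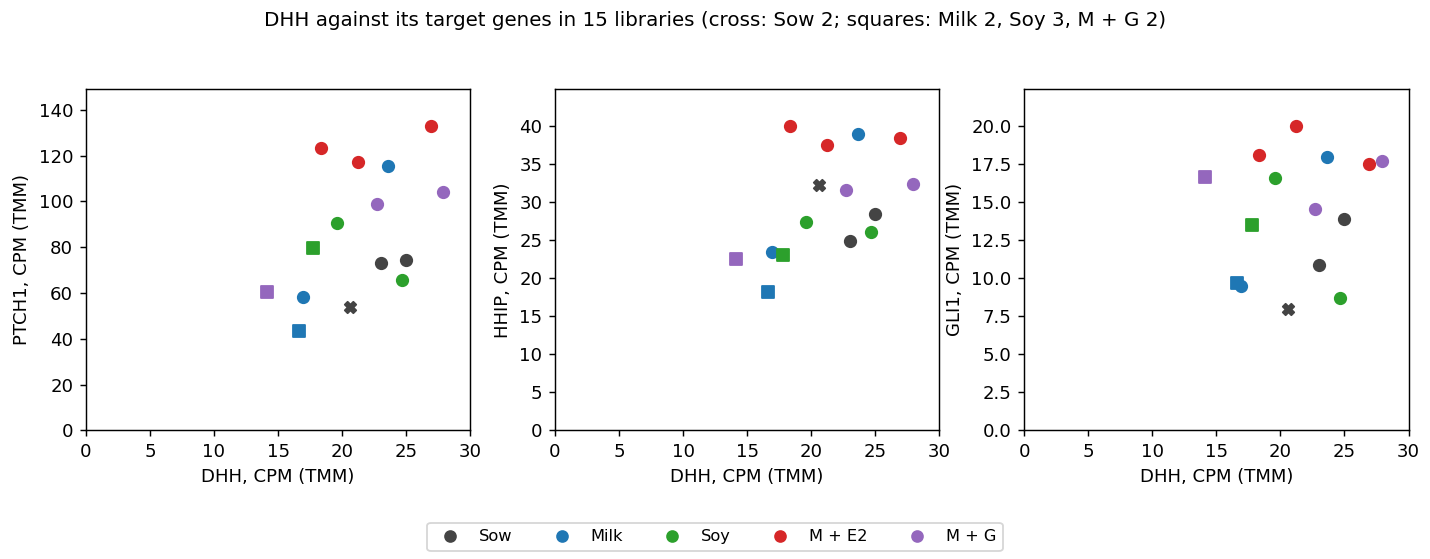
DHH (x axis, CPM) against PTCH1, HHIP and GLI1 (y axes, CPM) in 15 libraries coloured by diet; the cross is Sow 2 and squares are Milk 2, Soy 3 and M + G 2. The squares lie at 14.1 to 17.8 CPM of DHH, and at a DHH level of 18.4 to 26.9 CPM the M + E2 libraries have PTCH1 at 117 to 133 CPM.

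The other genes of the pathway were taken from lists made by known role: 52 genes, of which 44 were tested. In M + E2 relative to Sow 1 of the 44, EVC2, was called by edgeR's quasi-likelihood test, and it was higher, where 1.44% of all genes were called higher. In all, 15 had an unadjusted p of 0.05 or less and were higher and 3 were lower, beside 14.6% and 19.2% of all genes. The median log2 fold change of the 44 was 0.30 and that of all genes 0.01. EVC2, part of a complex at the base of the cilium through which SMO signals to the GLI proteins, stood at 20.8 ± 4.46 CPM in M + E2 and 8.07 ± 1.95 CPM in Sow (SD, n = 3 each, Sow 2 included). In the fit without Sow 2 the means were 21.7 and 9.17 CPM. There EVC2 was higher in M + E2 by 1.24 (SE 0.30, adjusted p = 0.0396, edgeR) on the log2 scale. Relative to Sow it was also higher in M + G (0.99, adjusted p = 0.129), Soy (0.83, adjusted p = 0.320) and Milk (0.81, adjusted p = 0.380). In M + E2 relative to Milk it had 0.43 (adjusted p = 0.358, edgeR), so a level above Sow was not particular to E2. In M + E2 relative to Sow, with the mean ribosomal protein level as a covariate, 0 of the 44 were called. With all 3 Sow libraries 8 were, about the share of all genes in that fit, 18.1%.

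Most genes of the cilium list had a positive value and the kinases were divided. Of 13 genes of signal transduction in the cilium, 7 were higher and 1 lower at an unadjusted p of 0.05 or less in M + E2 relative to Sow. The shares of all genes were 14.6% higher and 19.2% lower. The median log2 fold change of the 13 was 0.71, and KIF7, a kinesin that organises the cilium tip, had 1.23 (SE 0.36, adjusted p = 0.0509). Of 16 kinases and factors of GLI turnover 2 were higher and 2 lower, with a median of 0.04. Among these, CSNK1A1, a casein kinase that phosphorylates SMO and GLI proteins, had −0.46 (SE 0.17, adjusted p = 0.0831) and GRK2, a receptor kinase, 0.58 (SE 0.22, adjusted p = 0.0845). Of the 13 cilium genes, 4 had an unadjusted p of 0.05 or less in M + G relative to Sow, 6 in Soy and 1 in Milk. The shares of all genes were 23.6%, 15.0% and 12.1%, and the medians of the 13 were 0.37, 0.52 and 0.24. In M + E2 relative to Milk it was 1 of the 13 (17.7% of all genes), with a median of 0.36.

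In M + E2 relative to Sow, 3 of the 8 target genes tested beside the members were higher at an unadjusted p of 0.05 or less (14.6% of all genes). The 8 had a median log2 fold change of 0.62. FOXF1, a mesenchymal transcription factor, had 0.92 (SE 0.35, adjusted p = 0.0944) and the cyclin CCND2 0.84 (SE 0.34, adjusted p = 0.106). For the ligand-release gene DISP1 it was 0.72 (SE 0.25, adjusted p = 0.0703) and for LRP2, an endocytic receptor that can bind hedgehog ligands, 1.01 (SE 0.38, adjusted p = 0.0911) on 9 to 30 reads per library in these groups. GPC3, a glypican that binds hedgehog ligands, had 0.04 (SE 0.58, adjusted p = 0.969). In M + G, Soy and Milk relative to Sow, FOXF1 had 0.92, 0.87 and 0.75 and DISP1 0.81, 0.88 and 0.64. Their adjusted p-values there ran from 0.131 to 0.415 (edgeR). LRP2 had 0.39, 0.11 and −0.78 in the same comparisons. DISP2, with 2 to 3 reads in each Sow library and 7 to 13 in each M + E2 library (adjusted p = 0.0561), had too few reads for a fold change to be given.

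In M + E2 relative to Milk 0 of the 44 were called by edgeR's quasi-likelihood test, and 3 were higher and 0 lower at an unadjusted p of 0.05 or less, beside 7.23% and 10.5% of all genes. LRP2 stood at 3.22 ± 0.426 CPM in M + E2 and 0.924 ± 0.424 CPM in Milk (SD, n = 3 each), with 1.79 (SE 0.36, adjusted p = 0.175) on 3 to 30 reads per library, and was the 1 gene of the 44 that DESeq2 (0.780% of all genes) and edgeR's exact test (0.636%) called. GPR161, a ciliary receptor that restrains the pathway, had 0.62 (SE 0.19, adjusted p = 0.198), and MYCN 0.50 (SE 0.23, adjusted p = 0.281). The 8 target genes tested beside the members were divided, with a median of 0.22. CCND1 (−0.47), OSR1 (−0.15) and SNAI1 (−0.09) were lower, and CCND2, FOXF1, MYCN, PDGFRA and TBX2 were higher. SCUBE1, DISP2, GPC3, IFT172, CSNK1A1, CSNK1E and PDGFRA, the remaining genes with the smallest p of their list, had adjusted p-values from 0.287 to 0.535. In the other 6 comparisons 0 of the 44 were called by the same test. At an unadjusted p of 0.05 or less there were 10 in M + G relative to Sow (23.6% of all genes), 13 in Soy relative to Sow (15.0%) and 6 in Milk relative to Sow (12.1%). The number was 1 in M + G relative to Milk (2.60%), 3 in Soy relative to Milk (2.44%) and 3 in Soy relative to M + E2 (13%). LRP2 was the 1 in M + G relative to Milk, at 1.17 (adjusted p = 0.9405, edgeR). It was among the 3 in Soy relative to Milk, at 0.89 (adjusted p = 0.9993), so a level above Milk was not particular to E2. Milk had 3 to 10 reads of LRP2 per library. DESeq2 called 0 in M + G relative to Sow and edgeR's exact test 4, where 6.48% of all genes were called.

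**Figure D5:**
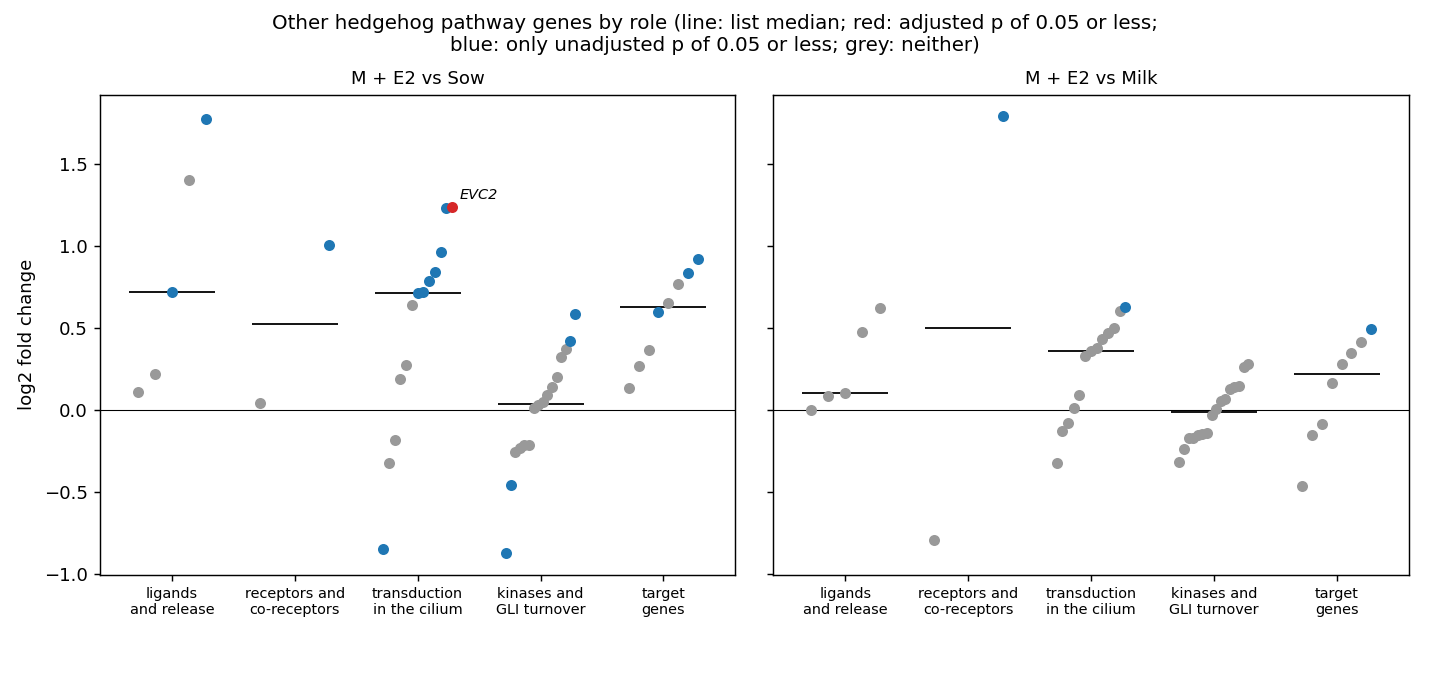
log2 fold change (y axis) of the 44 other pathway genes tested, by role (x axis), in M + E2 vs Sow and M + E2 vs Milk, with the median of each list as a line. Red marks an adjusted p of 0.05 or less (EVC2 in M + E2 vs Sow), blue an unadjusted p of 0.05 or less only, and grey neither; the kinases and GLI turnover genes have medians near 0 in both.

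The other hedgehog ligands were near the limit of detection. SHH had at most 13 reads in any library and IHH at most 5, and neither passed the filter, so DHH was the ligand with 116 reads or more in every library.

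The genes whose levels followed those of a member most closely were looked for among 12426 tested genes with a symbol, over the 15 libraries, as a description without a test. For DHH these were SLC41A3 (Pearson's r 0.908), TTC12 (0.848) and MFSD13A (0.845). For PTCH1 they were LAMA1, PTPRU and SORL1 (0.982, 0.982 and 0.980), and for GLI1 they were ZNF687, SETD2 and PTBP1 (0.946, 0.940 and 0.935). LAMA1, which encodes a laminin chain of basement membranes, ran from 94.4 to 531 CPM, and like PTCH1 it was lowest in Milk 2. All genes of a library share its depth and its scaling factor.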

How the data were processed

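The authors trimmed single-end reads, mapped them in the CLC Genomics Workbench, starting with genes of the Porcine Translational Research Database and continuing with the remainder on the Ensembl pig genome, and deposited raw read counts per gene and library, without normalization. Whether the deposited counts hold the reads of both steps, and whether strand was used, was not given in the sources used here, so reads of overlapping or antisense genes cannot be told apart. Whether counts were split between similar genes was not stated either. The number of columns left unused was 0. Piglets came from different litters, and p-values measure the spread between piglets. Positions are those of a RefSeq annotation of Sscrofa11.1, matched by symbol. The percentages given beside read numbers cover counting error only, intervals of fold changes include the spread between piglets, and no sequence was used here.

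Here edgeR 4.0.16 (with limma 3.58.1) and DESeq2 1.42.0 were run in R 4.3.3. Steps were TMM scaling, filterByExpr (minimum count 10), and the quasi-likelihood F test from 1 fit over all 5 groups and 14 libraries, without Sow 2. Calls needed both a 2-fold change and a Benjamini-Hochberg adjusted p not above 0.05, the thresholds of the authors, whose test was edgeR's exact test. SE is the log2 fold change divided by the root of F. log2 CPM used a prior count of 1. The fit was tested on simulated data.

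The members, the pathway and marker lists, the tests and the alternatives were chosen with earlier results of these data known. From the pathway lists 1 gene is not reported here and is left out of their counts. Every member is named, with a fold change, SE and adjusted p where its unadjusted p was 0.05 or less. Of each pathway list, the 2 genes with the smallest p in M + E2 relative to Sow and relative to Milk are named, and for DHH, GLI1 and PTCH1 the 3 genes with the highest r. The sums of ribosomal protein and myoid markers that divide the libraries, at 20000 and 3000 CPM, were chosen after the values were seen.

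Deviations from the group mean were correlated across genes between Milk and M + G libraries of the same number (r = 0.233, 0.510 and 0.425 for numbers 1 to 3). Libraries of different numbers were not compared, and the labels do not give a pairing. These values therefore cannot show whether the numbers pair these groups.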

Additional observations from a re-analysis of the deposited data

How the results depend on the processing

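The 12 member fold changes with an unadjusted p of 0.05 or less kept their direction under every alternative run. They were chosen by that p, and the alternatives use mostly the same libraries. A kept direction was therefore likely in advance and is no independent check. Of the other 60 member fold changes 33 changed sign under at least 1 alternative, among them DHH in M + E2 relative to Sow, and the largest of these was 0.61 (GLI3 in Soy relative to Sow, with the ribosomal protein level as a covariate). The number of members called in M + E2 relative to Sow, 0 in the fit reported, was 3 with all 3 Sow libraries, 1 each with only these groups in the fit, with adjusted p alone (SMO), with DESeq2's Wald test, with edgeR's exact test, without TMM scaling (SMO) and without Milk 2, Soy 3 and M + G 2 together, and 0 to 5 with single libraries left out. In M + G relative to Sow it was 1 with all 3 Sow libraries, with only these groups and with edgeR's exact test, and 0 to 3 with single libraries left out (3 without Sow 3). In M + E2 relative to Milk it was 0 to 1 with single libraries left out (1 without Milk 3). For any difference among the 5 groups it was 1 with all 3 Sow libraries and with DESeq2's likelihood ratio test, and 0 to 2 with single libraries left out (2 without Milk 3).

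Of the other pathway genes, 1 was called in M + E2 relative to Sow, against 8 with all 3 Sow libraries, 8 without TMM scaling, 5 with only these groups, 5 with edgeR's exact test, 2 with DESeq2's Wald test, 2 with no filter on low counts, 2 with at least 10 counts in every library, 3 without Milk 2, Soy 3 and M + G 2, 0 with the ribosomal protein level as a covariate, and 0 to 13 with single libraries left out: 13 without Sow 3, 8 without Sow unnumbered, 3 without Milk 3 or Soy unnumbered, 2 without Milk 1, Milk 2 or Soy 3, and 0 without Soy 2 or any 1 library of M + E2 or M + G. In M + G relative to Sow, 0 became 6 with all 3 Sow libraries, 4 with only these groups, 4 with edgeR's exact test, and 0 to 6 with single libraries left out (6 without Sow 3, 3 without Sow unnumbered). In M + E2 relative to Milk, 0 became 1 with DESeq2's Wald test, 1 with edgeR's exact test, and 0 to 2 without single libraries (2 without Milk 3). The causes of these moves were not tested.

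The correlation of DHH with PTCH1 and HHIP passed an adjusted p of 0.05 without TMM scaling (0.784 and 0.745, and 0.576 for GLI1). With group means removed r was 0.654 and 0.617 for PTCH1 and HHIP, without a valid p-value. These settings aside, all 15 libraries gave no adjusted p below 0.05 in the main setting. With single libraries left out r ran from 0.429 to 0.622 for PTCH1, 0.484 to 0.692 for HHIP and 0.0596 to 0.309 for GLI1 (permutation tests). The 2 libraries whose absence brought adjusted p below 0.05 for PTCH1 and HHIP were M + E2 1 (permutation adjusted p = 0.0272 and 0.0180) and Soy unnumbered (0.0442 for both). With the replicate number as a block, 0 members and 0 other pathway genes were called in M + E2 and in M + G relative to Milk, as without it, and PTCH1 had a log2 fold change of 0.94 (adjusted p = 0.184). Between M + E2 and Milk libraries of the same number, r of the deviations was −0.0646, −0.0941 and −0.340. Whether the numbers pair piglets was not tested. With 2 or 3 libraries per group and 34 to 1152 reads per member and library, the printed intervals give the precision of each fold change. The covariate, the fit without 3 libraries and the fit without TMM scaling were chosen after seeing the data.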

Other observations

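IHH, Indian hedgehog, a ligand of the same family made in cartilage and gut, had 3 to 5 reads in each of the 3 M + G libraries, 1 read in 1 M + E2 library and 0 reads in the other 11 libraries. The gene was singled out after its values were seen, it did not pass the filter, and 0 reads allow a level of up to 3 reads, so no fold change is given. SHH, Sonic hedgehog, had reads in 12 libraries, from 1 to 13 where it was read, and the highest count was in M + G.

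Of the remaining cell types for which markers were listed, the sums by group were as follows. Germ cell markers summed to 281 to 332 CPM in M + E2 and 144 to 345 CPM in the other groups, endothelial markers to 334 to 459 CPM in Sow and 487 to 1279 CPM in the other groups, and markers of epididymal or rete epithelium to 55.8 to 92.7 CPM in M + E2 and 100.2 to 356 CPM in the other groups. KRT8, at 48.4 to 307 CPM, makes up most of the last sum, and relative to Milk 5 of the 6 markers tested had a higher value in M + E2 and 1 a lower one. Macrophage markers summed to 242 to 595 CPM, T cell markers to 8.08 to 21.7 CPM with CD3G at 0 reads throughout, and erythroid markers to 226 to 1474 CPM. Their part in the levels of the hedgehog genes was not tested.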
